A study of Mus musculus with 6 samples.

Results

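The dystrophin glycoprotein complex was followed through 10 genes in NIH3T3 mouse fibroblasts, out of 35275 genes in the deposited count table. They were taken by name and are the dystrophin gene Dmd, its autosomal paralogue Utrn, the dystroglycan gene Dag1, the sarcoglycan genes Sgcb, Sgcd and Sgce, the syntrophin genes Sntb1 and Sntb2, the dystrobrevin gene Dtna and the sarcospan gene Sspn. Each name matched 1 row. Dmd was chosen by its fold change between these libraries, so its values are a description with no test. The other 9 genes were added as its partners with those results known. RNA was sequenced from 3 libraries of 3T3NgBR, NIH3T3 cells that carry an HA-tagged plasmid for the Nogo-B receptor NgBR and were selected with G418, and from 3 libraries of wild-type NIH3T3. All cells were mouse embryo fibroblasts grown with calf serum, and the knockdown lines that the protocol also describes are not among the 6 libraries. The labels do not say whether 3T3NgBR is a clone or a pool or whether the wild-type cells carried an empty plasmid, so that NgBR, selection and clonal origin cannot be told apart. Nor do they say whether replicates came from separate cultures, and the p-values therefore cover the spread among 3 libraries a group, which could be purely technical.

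Dystrophin is a long rod that ties the actin skeleton under the plasma membrane to dystroglycan. Dystroglycan spans the membrane and binds laminin outside the cell through a sugar chain built on O-linked mannose, and the sarcoglycans and sarcospan form a membrane subcomplex beside it. Syntrophins and dystrobrevins bind the carboxy-terminal part of dystrophin as signalling adaptors. The complex is best known in muscle, where its loss leaves the membrane fragile, while many non-muscle cells use the paralogue utrophin in the place of dystrophin.

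Dmd (ENSMUSG00000045103) lies on mm10 chromosome X from 82948870 to 85206141 on the plus strand and spans 2257272 bases. Its annotation lists 14 transcripts, 3 of them coding. The coding transcript Dmd-203 starts at 82948903 and has 79 exons and 14910 bases. Dmd-201 and Dmd-202 start at 85048413 and have 18 and 17 exons and 4438 and 1858 bases. Dystrophin is named Dp427 in its full-length form, and the short form from the promoter near the 3′ end is named Dp71. The other annotated transcripts, none of them coding, start at other positions. The counts are per gene and do not show which start was used. The 250 bases before both RefSeq starts (GRCm38.p6) are given because the counts of Dmd can come from either, and those before the Dag1 start because Dag1 had the highest level per length of the complex. They cover chrX:82948620-82948869 and chrX:85048045-85048294 on the plus strand and chr9:108263959-108264208 on the minus strand. Capitals mark matches to the GC box GGGCGG or the E box CANNTG on either strand.
Dmd, before the start of the long form: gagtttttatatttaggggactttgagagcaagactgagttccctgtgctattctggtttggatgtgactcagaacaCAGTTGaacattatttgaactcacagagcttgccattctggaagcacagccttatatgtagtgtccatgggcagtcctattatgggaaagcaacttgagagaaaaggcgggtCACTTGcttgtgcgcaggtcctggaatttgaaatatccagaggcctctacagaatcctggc
Dmd, before the start of the short form: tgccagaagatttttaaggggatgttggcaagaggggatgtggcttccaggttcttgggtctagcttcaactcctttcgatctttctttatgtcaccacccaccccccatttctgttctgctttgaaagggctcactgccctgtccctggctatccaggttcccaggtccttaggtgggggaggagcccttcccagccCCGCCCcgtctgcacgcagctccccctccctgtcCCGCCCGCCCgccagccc
Dag1, before its start: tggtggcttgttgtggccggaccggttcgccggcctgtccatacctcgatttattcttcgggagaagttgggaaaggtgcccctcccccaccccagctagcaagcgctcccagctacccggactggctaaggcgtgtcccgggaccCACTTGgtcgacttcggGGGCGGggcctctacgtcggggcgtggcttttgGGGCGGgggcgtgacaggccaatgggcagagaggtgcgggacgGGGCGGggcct

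The windows before the 2 starts of Dmd differ in base composition. The long-form window held 45.2% G and C, 2 CpG dinucleotides, 2 E boxes, 0 GC boxes, 1 CArG box and 1 TATA box (TATAAA on either strand). The short-form window held 60% G and C, 7 CpG dinucleotides and 3 GC boxes, of which a pair overlap, and no match to the other motifs. The Dag1 window held 67.6% G and C, 21 CpG dinucleotides, 3 GC boxes and 1 E box. Over 32851 RefSeq windows of the same length, the median was 52.4% G and C with 6 CpG dinucleotides. A GC box was found in 32.7% of those windows, an E box in 66.2%, a CArG box in 1.47% and a TATA box in 12.4%.

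Depth differed between the groups, with 7369961 to 10358381 counts in 3T3NgBR libraries and 29515072 to 35511769 in NIH3T3 libraries. Nus1, the mouse gene of NgBR, averaged 178 ± 11.0 CPM (counts relative to library sizes scaled by the trimmed mean of M-values, TMM) in 3T3NgBR and 211 ± 22.8 CPM in NIH3T3 (SD, n = 3 each). Its ranges did not overlap, with 3T3NgBR below, and it was not called (log2 fold change -0.24, SE 0.21, adjusted p by edgeR = 0.786). The counts at mouse Nus1 thus do not show the labelled overexpression. The sources used here do not say whether plasmid reads were counted there, and each direction below is that of the libraries labelled 3T3NgBR. All 9 fibroblast markers were detected in both groups, and 6 of the 9 fold changes were negative. Of the 9, 0 were called by edgeR, 1 was at an unadjusted p under 0.05 and 1 was called by DESeq2. Over all tested genes these shares were 3.39%, 11.4% and 5.68%, so with 9 genes the counts say nothing particular to the cell type. The most abundant were Fn1 (log2 fold change -0.04) and Col1a2 (-0.01). The lowest fold change was that of Dcn, the decorin gene (-1.29, unadjusted p by edgeR = 0.0057). Dcn had separate ranges and averaged 332 CPM in 3T3NgBR and 813 CPM in NIH3T3. The summed level of the 9 markers was 20021 to 32265 CPM in 3T3NgBR and 20345 to 25338 CPM in NIH3T3. Library 2 of each group stood apart from the others on the second principal component, at -52.0 in 3T3NgBR and -35.0 in NIH3T3, with the other 4 libraries between 5.27 and 38.5. In those libraries long genes ran high, with Spearman correlations of 0.347 and 0.242 between a gene's deviation from its mean and its exonic length across 12589 genes, against -0.467 in 3T3NgBR library 3.

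Dmd was a low but plainly detected transcript in 3T3NgBR and a trace one in NIH3T3. It had 119, 113 and 108 counts in 3T3NgBR libraries 1 to 3, against 10, 31 and 14 counts in NIH3T3 libraries 1 to 3, although the NIH3T3 libraries were the deeper ones. On the CPM scale it was at 16.7, 11.2 and 10.3 in 3T3NgBR and at 0.286, 1.05 and 0.421 in NIH3T3. Every 3T3NgBR library was above every NIH3T3 library. The means were 12.7 ± 3.46 and 0.586 ± 0.407 CPM in 3T3NgBR and NIH3T3 (SD, n = 3 each), a ratio of 21.7. The fitted log2 fold change was 4.44 (SE 0.49, 95% interval 3.33 to 5.56). It was 5.14 without NIH3T3 library 2, the highest of its group, and 4.11 without NIH3T3 library 1. In these bulk libraries, more cells with the transcript and more transcript per cell cannot be told apart. Of the exonic bases of the gene, 23801 in all, 63.9% lie before the start of the short coding transcripts, and the share of counts from that stretch was not tested.

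**Figure D1:**
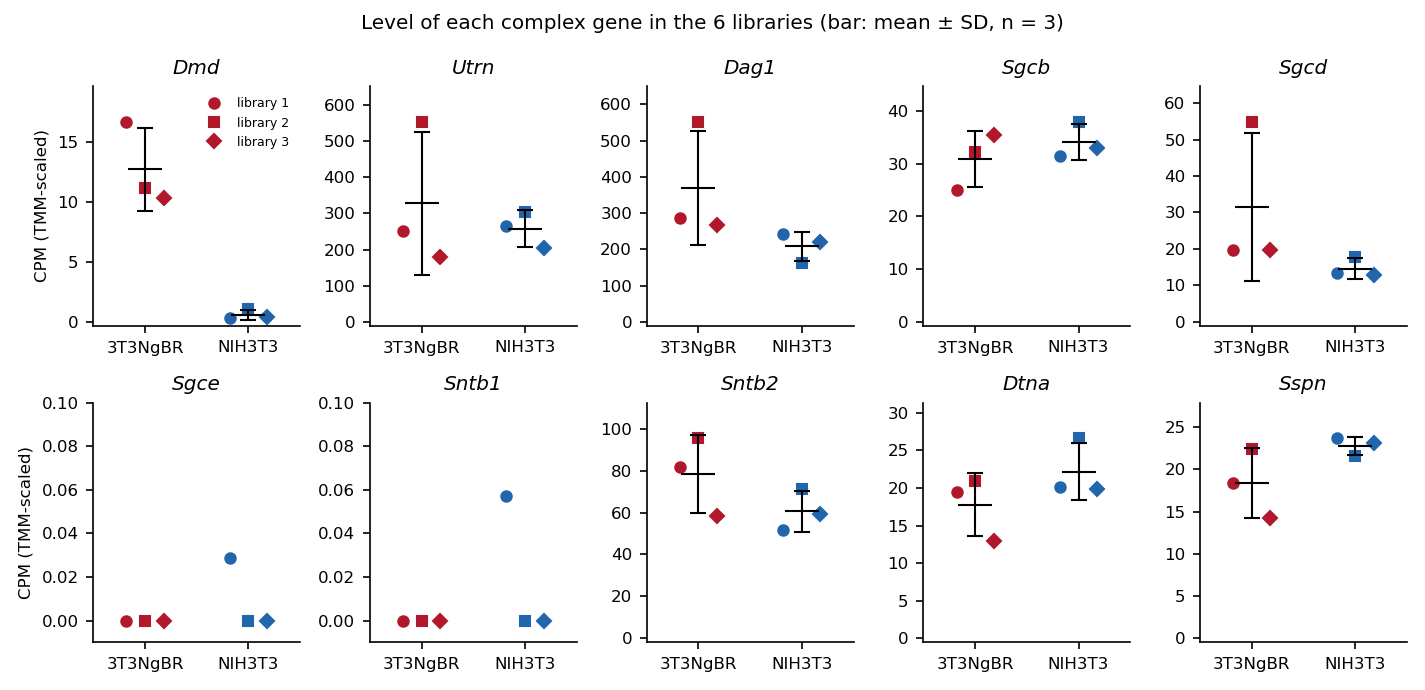
Level of the 10 complex genes in CPM on TMM-scaled library sizes, with 1 panel per gene on its own scale and 1 point per library. Bars give the mean ± SD of the 3 libraries of a group and are left out for Sgce and Sntb1, which had 1 and 2 counts in all. The 3T3NgBR points of Dmd, at 10.3 to 16.7 CPM, lie above the NIH3T3 points at 0.286 to 1.05 CPM.

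Over the whole transcriptome, the quasi-likelihood test of edgeR, at a Benjamini-Hochberg adjusted p under 0.05, called 3.39% of 12651 genes, 2.04% higher and 1.35% lower. Among the 10 complex genes 8 passed the filter on low counts, Dmd and 7 partners. Dmd passed that filter through its 3 libraries of 3T3NgBR, with 1 of 3 NIH3T3 libraries at the minimum, and as the gene chosen by this contrast it is not counted among the calls. None of the 7 tested partners was called by edgeR, and DESeq2 also called 0. At an unadjusted p under 0.05, which 11.4% of all tested genes reached, there were 2, Dag1 and Sgcd. The same 2 of 7 had ranges that did not overlap between the groups, beside 18.6% of all tested genes. Of the 7 partners, 4 had positive and 3 negative fold changes, and their median was 0.35 on the log2 scale beside -0.01 over all tested genes. The upper 95% bounds of the partners' log2 fold changes ran between 0.22 and 2.02.

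**Figure D2:**
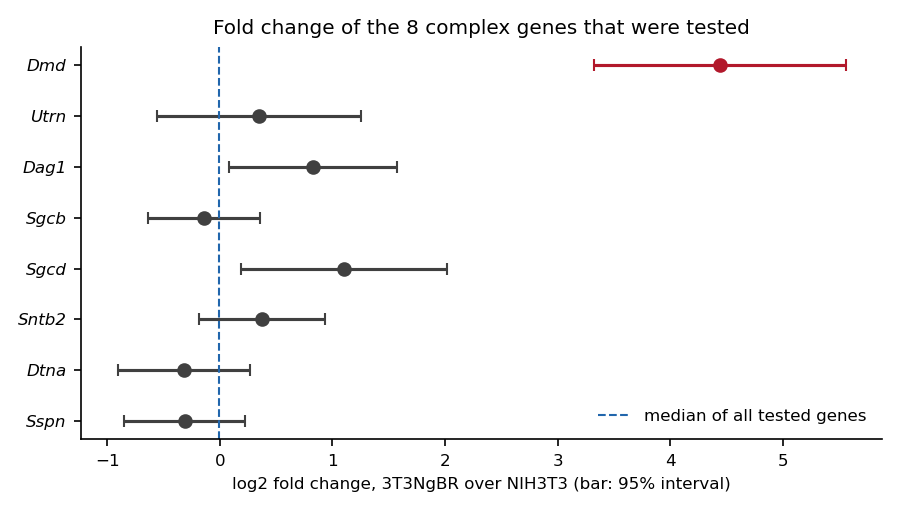
Fitted log2 fold change of 3T3NgBR over NIH3T3 for the 8 complex genes that passed the filter, with 95% intervals from edgeR and the median of all tested genes as a dashed line. Dmd, which was chosen by this value, lies at 4.44, and the intervals of the 7 partners end at or below 2.02.

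Utrn encodes utrophin, which binds actin and dystroglycan as dystrophin does. Its difference between the groups was within the spread of the libraries. Utrn (ENSMUSG00000019820, chromosome 10, 12382188 to 12869365, minus strand) was at 252, 552 and 179 CPM in 3T3NgBR libraries 1 to 3 and at 266, 304 and 203 CPM in NIH3T3 libraries 1 to 3. The groups overlapped, and library 2 was the highest of each group. The means were 328 ± 198 CPM in 3T3NgBR and 258 ± 50.7 CPM in NIH3T3 (SD, n = 3 each), and the fitted log2 fold change was 0.35 (SE 0.40, 95% interval -0.56 to 1.26, adjusted p by edgeR = 0.861). Without 3T3NgBR library 2 the value was -0.26 (adjusted p by edgeR = 0.777), and without both libraries numbered 2 it was -0.13.

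Dmd was also expressed relative to Utrn within each library, a description that reuses the counts by which Dmd was chosen. There were 66.2, 20.2 and 57.8 counts of Dmd per 1000 counts of Utrn in 3T3NgBR libraries 1 to 3, against 1.08, 3.45 and 2.07 in NIH3T3 libraries 1 to 3. As a share of the summed counts of both genes, Dmd took 6.21% (exact 95% binomial interval 5.17 to 7.38), 1.98% (1.64 to 2.38) and 5.46% (4.50 to 6.55) in 3T3NgBR. In NIH3T3 it took 0.107% (0.0515 to 0.198), 0.344% (0.234 to 0.488) and 0.207% (0.113 to 0.347). The intervals cover counting error only. Utrn remained the more abundant of the 2 paralogues. Per kilobase of exonic length its mean level was 35.8 times that of Dmd in 3T3NgBR and 612 times in NIH3T3. The level of Dmd per kilobase depends on the length assumed, at 0.535 and 0.0246 CPM per kb in 3T3NgBR and NIH3T3 over all exonic bases, and at 2.87 and 0.132 over the 4438 bases of the short transcript Dmd-201.

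**Figure D3:**
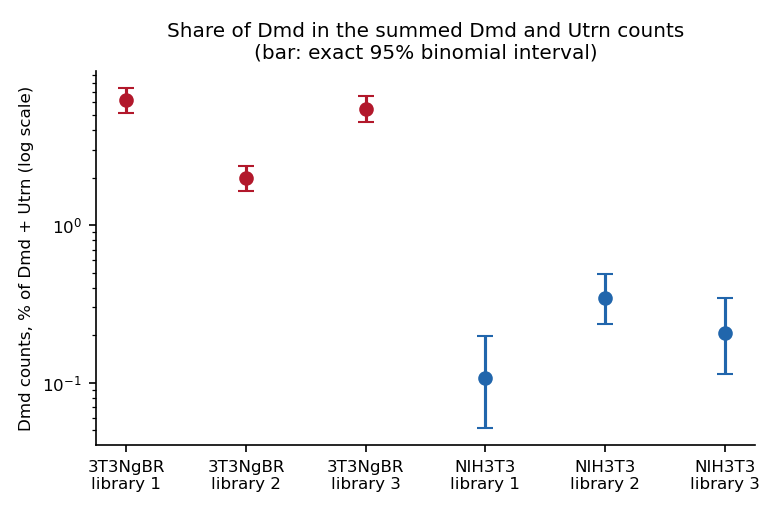
Dmd counts as a percentage of the summed Dmd and Utrn counts in each library, on a log axis, with exact 95% binomial intervals. The 3T3NgBR libraries lie at 1.98 to 6.21% and the NIH3T3 libraries at 0.107 to 0.344%.

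Dag1 encodes the dystroglycan precursor, which is cut into the laminin-binding alpha and the membrane-spanning beta subunit. Dag1 (ENSMUSG00000039952, chromosome 9, 108204634 to 108263958, minus strand) was at 288, 551 and 268 CPM in 3T3NgBR libraries 1 to 3 and at 241, 163 and 220 CPM in NIH3T3 libraries 1 to 3. The ranges did not overlap, with 3T3NgBR above, as for 9.21% of all tested genes. The means were 369 ± 158 CPM in 3T3NgBR and 208 ± 40.5 CPM in NIH3T3 (SD, n = 3 each). The log2 fold change of 0.83 (SE 0.33, 95% interval 0.08 to 1.57) had an unadjusted p of 0.0334 and was not called (adjusted p by edgeR = 0.354). Without 3T3NgBR library 2 it was 0.41, and without both libraries numbered 2 it was 0.27.

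Among the sarcoglycans, single-pass membrane proteins of the muscle complex, Sgcd had the largest partner fold change and Sgcb lay near none. Sgcd (ENSMUSG00000020354, chromosome 11, 46896253 to 47988969, minus strand), which encodes delta-sarcoglycan, was at 19.8, 54.8 and 19.7 CPM in 3T3NgBR libraries 1 to 3, against 13.3, 17.8 and 12.8 CPM in NIH3T3 libraries 1 to 3. The ranges did not overlap, but 3T3NgBR library 2 was far above the other 2 of its group. The log2 fold change was 1.11 (SE 0.41, 95% interval 0.19 to 2.02, unadjusted p = 0.0231, adjusted p by edgeR = 0.289), and 0.43 without 3T3NgBR library 2. Sgcb (ENSMUSG00000029156, chromosome 5, 73632749 to 73647790, minus strand), which encodes beta-sarcoglycan, was at 25.0, 32.3 and 35.4 CPM in 3T3NgBR and at 31.4, 37.9 and 32.9 CPM in NIH3T3. These ranges overlapped, and the fitted log2 fold change was -0.14 (SE 0.22, 95% interval -0.64 to 0.36, adjusted p by edgeR = 0.912).

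Sgce (ENSMUSG00000004631, chromosome 6, 4674350 to 4747207, minus strand), the imprinted gene of epsilon-sarcoglycan, was close to undetected. It had 0 counts in the 3 libraries of 3T3NgBR and 1 count in those of NIH3T3. A count of 3 over a group corresponds to 0.108 CPM in 3T3NgBR and 0.0307 CPM in NIH3T3, so no fold is given. Sspn (ENSMUSG00000030255, chromosome 6, 145931641 to 145965223, plus strand) encodes sarcospan, a tetraspan-like protein of the sarcoglycan subcomplex. It was at 18.4, 22.5 and 14.2 CPM in 3T3NgBR and at 23.7, 21.6 and 23.1 CPM in NIH3T3. The groups overlapped through 3T3NgBR library 2, and the log2 fold change was -0.31 (SE 0.24, 95% interval -0.85 to 0.22, adjusted p by edgeR = 0.743). Its exons share 69 bases with the antisense gene Sspnos, which had 4 counts over all libraries.

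Of the cytoplasmic adaptors, Sntb2 and Dtna were expressed and Sntb1 was not detected above the floor. Sntb2 (ENSMUSG00000041308, chromosome 8, 106935750 to 107019714, plus strand), which encodes beta-2-syntrophin, was at 81.7, 95.3 and 58.5 CPM in 3T3NgBR and at 51.5, 71.1 and 59.1 CPM in NIH3T3. The groups overlapped, and the fitted log2 difference was 0.37 (SE 0.25, 95% interval -0.19 to 0.93, adjusted p by edgeR = 0.676). Sntb1 (ENSMUSG00000060429, chromosome 15, 55636388 to 55906949, minus strand), the gene of beta-1-syntrophin, had 0 counts in 3T3NgBR and 2 counts, both in library 1, in NIH3T3. Dtna (ENSMUSG00000024302, chromosome 18, 23415135 to 23659715, plus strand), which encodes alpha-dystrobrevin, was at 19.5, 20.9 and 13.0 CPM in 3T3NgBR and at 20.1, 26.6 and 19.9 CPM in NIH3T3. Its ranges overlapped, and the log2 fold change was -0.32 (SE 0.26, 95% interval -0.91 to 0.27, adjusted p by edgeR = 0.764).

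The order of the complex genes per kilobase of exonic length was led by Dag1 and Utrn in both groups. In 3T3NgBR the mean levels were 58.0 CPM per kb for Dag1, 19.2 for Utrn, 7.62 for Sgcb, 7.58 for Sntb2, 3.81 for Sgcd, 3.67 for Sspn, 1.05 for Dtna and 0.535 for Dmd. There the ranges of Sgcb and Sntb2, of Sntb2 and Sgcd, and of Sgcd and Sspn overlapped, while each other neighbouring pair in that order was separate. In NIH3T3 they were 32.7 CPM per kb for Dag1, 15.1 for Utrn, 8.40 for Sgcb, 5.85 for Sntb2, 4.56 for Sspn, 1.77 for Sgcd, 1.31 for Dtna and 0.0246 for Dmd. There only Sgcd and Dtna overlapped among the neighbouring pairs down to Dmd. Over all its exonic bases Dmd was the eighth in both groups, but this place depends on the transcript assumed. Over Dmd-201 alone its level in 3T3NgBR, 2.87 CPM per kb, would be above that of Dtna, and over Dmd-202, at 6.85 CPM per kb, also above those of Sgcd and Sspn. The other genes were kept over all their exonic bases there, and their levels depend on the transcript assumed as well. Over all exonic bases Dmd took 0.856%, 0.315% and 0.591% of the summed level per kilobase of the 10 genes in 3T3NgBR libraries 1 to 3, against 0.0163%, 0.0651% and 0.0262% in NIH3T3 libraries 1 to 3.

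**Figure D4:**
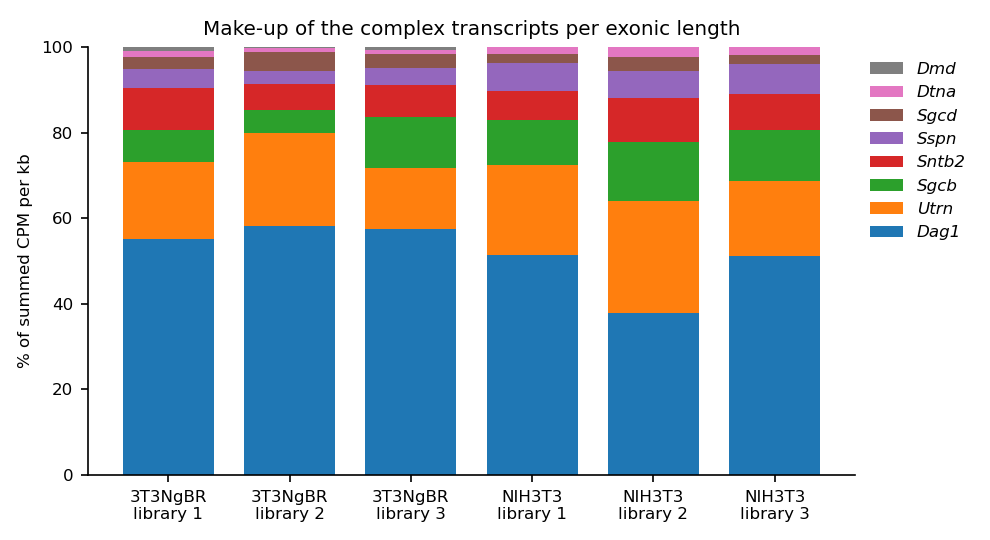
Share of 8 complex genes in the summed CPM per kilobase of exonic length, 1 bar per library. Sgce and Sntb1, at most 0.0146% in any library, are not drawn. Dag1 takes 55.2 to 58.2% in 3T3NgBR and 37.9 to 51.4% in NIH3T3, and Dmd is the thin band at the top of the 3T3NgBR bars, at most 0.856%.

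The other genes of the complex were read as a list of 12, of which 3 were tested. By edgeR, at an unadjusted p under 0.05 and by DESeq2 0 were called, beside 3.39%, 11.4% and 5.68% of all tested genes. With 3 genes these counts say nothing particular to the list. Dtnb, the beta-dystrobrevin gene, was at 35.9 ± 3.42 CPM in 3T3NgBR and 36.3 ± 2.47 CPM in NIH3T3 (SD, n = 3 each), with a log2 fold change of -0.02 (SE 0.20). Drp2, a further dystrophin paralogue, was at 1.77 ± 0.428 and 1.75 ± 0.573 CPM in 3T3NgBR and NIH3T3, a log2 fold change of 0.00 (SE 0.42). The signs of both turned under some alternatives. Sgca, the gene of a muscle sarcoglycan, had at most 3 counts in any library, and 5 of the 12 genes, among them Sgcz and Cav3, had none in any.

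The dystroglycan ligands, which include laminin chains, agrin and perlecan, had 9 of 13 genes tested. Of these, 0 were called higher and 1 lower, beside 2.04% and 1.35% of all tested genes. The list's median was -0.02 on the log2 scale. The one called was Nrxn2, a neurexin, at 1.96, 1.58 and 0.764 CPM in 3T3NgBR and at 5.84, 3.62 and 5.69 CPM in NIH3T3, with separate ranges. Its log2 fold change was -1.84 (SE 0.42, adjusted p by edgeR = 0.0474), and it was not called without 3T3NgBR libraries 1, 2 or 3 or NIH3T3 libraries 1 or 3 (adjusted p by edgeR between 0.0956 and 0.193), nor with a filter of 1 CPM (0.0511) or thinned libraries (0.0542). Lama2, the chain of the main muscle laminin, was below the filter at 0.324 ± 0.281 CPM in 3T3NgBR and 0.745 ± 0.288 CPM in NIH3T3 (SD, n = 3 each).

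NgBR serves dolichol synthesis, and dolichol phosphate mannose is the donor of the mannose on dystroglycan. The 12 tested of 13 enzymes of the O-mannosyl glycan had a median log2 fold change of -0.22, with values between -0.46 and 0.46. The 11 genes listed for dolichol phosphate mannose supply had a median of -0.19, with values between -0.52 and 0.49. In both lists 0 genes were called by edgeR, 0 had an unadjusted p under 0.05 and 0 were called by DESeq2, beside 3.39%, 11.4% and 5.68% of all tested genes. Of 8 tested cytoskeletal and syntrophin-binding partners, 0 were called by edgeR and by DESeq2, and 1, the vinculin gene Vcl, had an unadjusted p under 0.05.

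Laminin-binding integrins, the other main class of laminin receptors, had 1 of 5 genes called, and it was higher. The list's median was 0.77 on the log2 scale, with 3 of 5 at an unadjusted p under 0.05 and 2 called by DESeq2, beside 2.04% of all tested genes called higher, 11.4% and 5.68%. With 5 genes these counts say nothing particular to the class. Itgb4, the beta-4 subunit of hemidesmosomes, was at 9.68, 6.93 and 7.93 CPM in 3T3NgBR and at 3.24, 2.13 and 3.52 CPM in NIH3T3, with separate ranges. Its log2 fold change was 1.46 (SE 0.31, adjusted p by edgeR = 0.0351). It was not called without 3T3NgBR libraries 1 or 3 or NIH3T3 libraries 1, 2 or 3 (adjusted p by edgeR between 0.0697 and 0.143), nor when every library was thinned to the lowest depth (0.118).

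**Figure D5:**
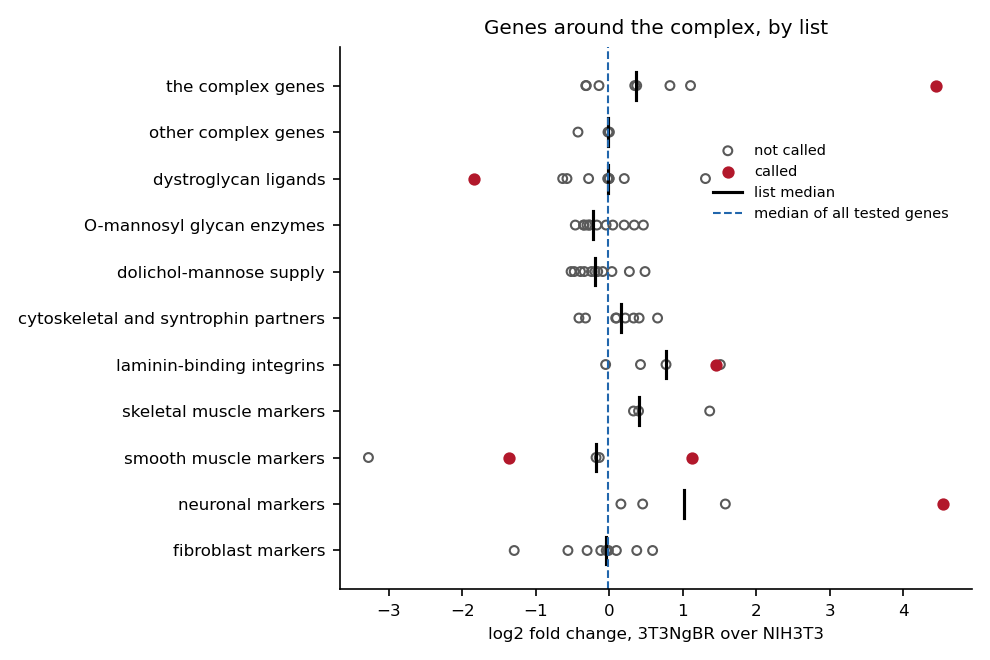
Fitted log2 fold change of 3T3NgBR over NIH3T3 for the tested genes of each list with at least 3 of them, with filled points for genes called by edgeR, black ticks for list medians and a dashed line for the median of all tested genes. Dmd, chosen by this value and drawn filled without a test, lies at 4.44. The other tested complex genes lie between -0.32 and 1.11.

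Markers of cell types that are known for dystrophin were read beside Dmd. Of 17 skeletal muscle markers 3 were tested, 0 called by edgeR, 0 by DESeq2 and 1, Des, at an unadjusted p under 0.05. Over all tested genes these shares were 3.39%, 5.68% and 11.4%. With 3 genes these counts say nothing particular to the cell type. The 17 markers summed to 4.59 to 8.01 CPM in 3T3NgBR and 2.40 to 3.38 CPM in NIH3T3. Myod1, Myf5, Myog, Pax7, Myh4 and Myh8 had 0 counts in all 6 libraries. Des, the desmin gene, had a log2 fold change of 1.37 (SE 0.41, adjusted p by edgeR = 0.154). The 6 cardiac markers summed to 2.28 to 13.5 CPM in 3T3NgBR and 0.778 to 2.26 CPM in NIH3T3, nearly all of it Tnnt2, at 13.5, 2.28 and 11.0 CPM in 3T3NgBR and 1.09, 0.744 and 2.17 CPM in NIH3T3. Tnnt2 was not called by edgeR (log2 fold change 2.72, SE 0.64, adjusted p = 0.0571) and was called by DESeq2 (adjusted p = 0.000242), while Tnni3 had 0 counts in all libraries. EdgeR did call Tnnt2 with no filter on low counts and without 3T3NgBR library 2, NIH3T3 library 3 or both libraries numbered 2 (adjusted p between 0.000453 and 0.0377).

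Smooth muscle markers summed to 141 to 206 CPM in 3T3NgBR and 130 to 208 CPM in NIH3T3. Of 5 tested, 3 had an unadjusted p under 0.05 and DESeq2 called 3, beside 11.4% and 5.68% of all tested genes. With 5 genes these counts say nothing particular to the cell type. By edgeR, Smtn, the smoothelin gene, was called higher (log2 fold change 1.13, SE 0.22, adjusted p by edgeR = 0.0242) and Tagln, the transgelin gene, lower (-1.36, SE 0.26, adjusted p by edgeR = 0.0214). Smtn lost its call without 3T3NgBR libraries 1, 2 or 3 or NIH3T3 libraries 1 or 3, and Tagln without 3T3NgBR library 1 or NIH3T3 libraries 1 or 3 (adjusted p by edgeR between 0.0536 and 0.106). Lmod1, the leiomodin-1 gene, had the lowest fold change of the list, on 0, 3 and 0 counts in 3T3NgBR and 57, 18 and 34 counts in NIH3T3. It was not called by edgeR (log2 fold change -3.28, adjusted p = 0.128). Glial markers summed to 2.37 to 2.95 CPM in 3T3NgBR and 1.75 to 2.40 CPM in NIH3T3. Of these 7 markers 1 was tested, with 0 called by edgeR, 0 at an unadjusted p under 0.05 and 0 by DESeq2. Over all tested genes these shares were 3.39%, 11.4% and 5.68%, and with 1 gene the counts say nothing particular to the cell type. Neuronal markers summed to 10.1 to 24.6 CPM in 3T3NgBR and 7.41 to 9.93 CPM in NIH3T3. Of 4 tested, 2 had an unadjusted p under 0.05 and DESeq2 called 2, beside the same 11.4% and 5.68%. With 4 genes these counts likewise say nothing particular to the cell type. Map2, which encodes a microtubule-associated protein, was at 10.4, 6.04 and 7.55 CPM in 3T3NgBR and 2.61, 3.69 and 1.69 CPM in NIH3T3, with separate ranges, and edgeR did not call it (log2 fold change 1.58, adjusted p = 0.0562). Syt1 was called higher by edgeR, on 5, 6 and 6 counts in 3T3NgBR and 0, 2 and 0 counts in NIH3T3, and leaving out any single library took it below the filter. The part of these cell types in the level of Dmd was not tested.

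The genes nearest to Dmd on chromosome X were read beside it. Of the 10 nearest protein-coding genes outside its span, 5 on each side, 6 had 0 counts in all libraries, 1 had 2 counts and 3 were tested. Tab3, a kinase adaptor gene 0.368 Mb after Dmd, was at 31.4, 31.0 and 21.2 CPM in 3T3NgBR and at 23.9, 34.8 and 21.7 CPM in NIH3T3. Its log2 fold change was 0.06 (SE 0.27, 95% interval -0.55 to 0.66). The glycerol kinase gene Gk, listed as Gyk and 0.496 Mb after Dmd, had a log2 fold change of -0.01 (95% interval -0.67 to 0.64). Tmem47, 1.85 Mb before Dmd, had one of 0.06 (95% interval -0.67 to 0.80). All 3 ranges overlapped between the groups, and their signs turned without single libraries. By edgeR, at an unadjusted p under 0.05 and by DESeq2 0 were called, beside 3.39%, 11.4% and 5.68% of all tested genes. With 3 genes these counts say nothing particular to the region.

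Likeness to Dmd was measured as the root-mean-square difference of log2 CPM, centred on the mean of the 6 libraries, among 10964 genes. Foxp2, a forkhead transcription factor, came closest at 0.305, with 15.4, 10.9 and 9.65 CPM in 3T3NgBR and 0.458, 1.62 and 0.602 CPM in NIH3T3. Nrxn3, a neurexin gene, followed at 0.319, Fhl1, of a LIM-domain protein, had rank 4 at 0.329 and Slitrk5, of a neuronal membrane protein, rank 5 at 0.349. Rank 3 was a gene with a clone-based name. Among the 7 tested partners Sgcd was at 1.85 and rank 388, Dag1 at 1.96 and rank 641, Sntb2 at 2.05 and rank 1064, Utrn at 2.19 and rank 2993, and the others between 2.32 and 2.42 at ranks 6540 to 8734. These distances are over 6 libraries of 2 groups, with each gene's level counted in the same libraries as Dmd. They reuse the counts by which Dmd was chosen, and its profile is mostly its difference between the groups. The ranks therefore largely restate the fold changes and test nothing.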

How the data were processed

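The authors deposited raw counts of reads per gene, unnormalized. HISAT2 2.0.5, featureCounts 1.5.0-p3, DESeq2 and the build mm10 are named per the submitters' processing notes. The annotation release and strand setting are not given there, so reads of overlapping or antisense genes cannot be told apart. Positions and exonic lengths came from GENCODE M21 of that build, which held 97.8% of the identifiers, and sequences from RefSeq, which had a start for 6 of the 10 genes.

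Genes were filtered with filterByExpr and tested with edgeR 4.0.16 in R 4.3.3 (TMM factors, quasi-likelihood F test, no covariate), 3T3NgBR over NIH3T3, with Benjamini-Hochberg adjustment over all 12651 tested genes. Standard errors and 95% intervals were derived from the F statistic. Some of the fits were also run on simulated counts, drawn independently for each library and without a length trend. That simulation does not show how they behave with the length trends of these libraries. DESeq2 1.42.0, other scalings and filters, libraries left out, a replicate block, a length offset and thinning were the alternatives. Complex genes and lists were chosen with earlier results of these data known. The naming rule took the complex genes, Nus1, the called genes of each list or its 2 most abundant where none was called, the 5 nearest genes on each side of Dmd and the 5 genes most like it. Lists with no called gene are mostly given by counts alone, and Sgca, Sgcz, Cav3, Lama2, Vcl, Dcn, Lmod1, Map2 and the markers at 0 that fall outside the rule were chosen after their values were seen. Same-group libraries differed by 27.7 to 260 times the sampling noise (chi-square per degree of freedom), so none was a duplicate. Some genes of the lists are counted in them but not reported here by name.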

Additional observations from a re-analysis of the deposited data

How the results depend on the processing

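Under each of 16 alternatives 0 partners of Dmd were called. The lowest adjusted p of a partner was 0.0537 by edgeR, for Sgcd with the replicate block (log2 fold change 0.95). The log2 fold change of Dmd ran between 4.11 and 5.14 with single libraries left out, and was 5.22 without both libraries numbered 2 and 5.15 with libraries thinned to the shallowest depth. Of all tested genes 258 were called higher and 171 lower. DESeq2 called 446 higher and 273 lower, no filter on low counts gave 302 lower, and leaving out both libraries numbered 2 gave 263 lower. Leaving out single libraries gave 141 to 209 higher and 84 to 165 lower. The cause of these shifts was not tested. The replicate block gave 418 higher and 301 lower, and Tnnt2 was called with it (adjusted p by edgeR = 0.00138) and with the block and the length offset (0.0111), while Syt1 was not called with both (0.0538). Same-numbered libraries had correlations of deviations of 0.0147, 0.341 and 0.434 for numbers 1 to 3. Between numbers 2 and 3 across the groups they were -0.399 and -0.367. Those of 3T3NgBR library 1 with the NIH3T3 libraries ran between -0.0186 and 0.0174. The labels do not say that the numbers pair samples, so the block was kept as an alternative and pairing was not settled. Utrn was between -0.26 and 0.64 on the log2 scale with single libraries left out, and -0.13 without both libraries numbered 2, while no other partner changed sign. Fold changes near 0 also turned. With single libraries left out, Dtnb ran between -0.10 and 0.036, Drp2 between -0.24 and 0.23, Tmem47 between -0.15 and 0.55, Tab3 between -0.075 and 0.29 and Gk (Gyk) between -0.23 and 0.21. Without both libraries numbered 2, Dtnb was at 0.025, Drp2 at -0.051 and Gyk at 0.32. Drp2 was at -0.011 on library totals and -0.046 with no filter, Dtnb at 0.072 when thinned, and Gyk at 0.0012 with a filter of 1 CPM and 0.035 with the length offset. At this depth, differences of Sgce and Sntb1 were not detectable.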

Other observations

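Values outside the comparisons above were chosen after they were seen. Peg10, the imprinted neighbour of Sgce, had 0 counts in each 3T3NgBR library and 0, 0 and 1 counts in NIH3T3 libraries 1 to 3, as low as Sgce itself. Of the neurexins, which bind dystroglycan at synapses, Nrxn3 had 68, 76 and 58 counts in 3T3NgBR and 11, 20 and 8 counts in NIH3T3, a log2 fold change of 4.19 (SE 0.46), while Nrxn2 had 14, 16 and 8 counts in 3T3NgBR and 204, 107 and 189 counts in NIH3T3. Each gene's ranges were separate between the groups, with Nrxn3 above and Nrxn2 below in 3T3NgBR.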
